A study of Mus musculus with 15 samples.

Results

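Mitochondrial ribosomal protein genes were followed across 15 RNA-sequencing libraries of mouse hematopoietic stem cells (HSCs), the rare marrow cells from which every blood lineage descends. The members were the genes whose symbol begins with Mrpl or Mrps and a digit, with pseudogenes left out and copies on alternate scaffolds added to their gene. The rule found 77 of 46102 genes, 48 of the large subunit (Mrpl) and 29 of the small subunit (Mrps). All 15 libraries came from wild-type C57BL/6 mice aged 8 to 10 weeks, with 100 cells sorted for each. Freshly sorted HSCs came from untreated mice (n = 4) and from mice given 5-fluorouracil (5-FU) and sampled at day 4 (n = 4). This uracil analog is toxic to cycling cells. Cultured HSCs were kept without (control, n = 3) or with nifedipine (n = 4), a blocker of L-type calcium channels, and were sorted from cells within 3 divisions. The drug doses, the length of the culture and whether replicates came from separate mice were not stated in the labels, so p-values measure the spread between these libraries, which may be technical.

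The mitochondrial ribosome translates the few messenger RNAs of mitochondrial DNA, which encode subunits of the respiratory chain and of ATP synthase. All of its proteins are encoded in the nucleus, made in the cytosol and imported. Some have a counterpart in the bacterial ribosome and others were added during the evolution of mitochondria. Symbols do not always match position: Mrps18a and Mrps30 are known as proteins of the large subunit, and Mrps36 is now regarded as a subunit of the 2-oxoglutarate dehydrogenase complex. They were kept in the small subunit here, as the rule sets it by symbol.

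The libraries held 6171730 to 26673045 exon reads, and the least read member in any library, Mrpl53, had 12. The 37 features of mitochondrial DNA had 0 reads in every library, so the messenger RNAs that these ribosomes translate could not be measured here. All 14 genes of an HSC identity list had reads in every group. The summed level of that HSC list was 5873 to 6296 CPM (TMM-scaled exon read counts per 1 M reads) in untreated, 4101 to 4459 after 5-FU, 2068 to 2140 in control and 2950 to 3264 in nifedipine libraries. Mitosis genes differed more: the 22 listed genes summed to 202 to 970 CPM in untreated libraries, highest in replicate 3, and to 3641 to 4288 CPM after 5-FU. In culture they summed to 4091 to 4235 CPM without and 2594 to 3049 CPM with nifedipine. Genes of endothelial and stromal cells summed to 317 to 2070 CPM in untreated libraries, lowest in replicate 3 and highest in replicate 2, and to 246 to 667 CPM after 5-FU. Erythroid genes summed to 753, 2550, 750 and 2870 CPM in untreated replicates 1 to 4, and to 974 to 1136 CPM after 5-FU. The 12 lymphocyte genes listed summed to 23.7 to 38.4 CPM in untreated libraries and 13.6 to 24.2 CPM after 5-FU. In culture they summed to 12.1 to 14.1 CPM without and 6.9 to 11.2 CPM with nifedipine. Of that list, the T-cell genes Cd3e and Cd3g were at 0 in all groups, while other listed genes had reads.

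The members made up a small and graded share of the libraries. CPM values are shares of a library, and in bulk samples a change in the number of cells that express a gene cannot be told apart from a change in RNA per cell. The 48 large subunit genes together stood at 980, 888, 1021 and 870 CPM in untreated replicates 1 to 4 and at 1394, 1355, 1268 and 1286 CPM after 5-FU. In culture they stood at 2002, 1898 and 1961 CPM without nifedipine and at 1432, 1300, 1459 and 1413 CPM with it. The order was untreated, 5-FU, nifedipine, control, and only 5-FU and nifedipine overlapped.

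The 29 small subunit genes kept the same order. Their summed level was 566 ± 27.7 CPM in untreated (SD, n = 4), 784 ± 44.7 after 5-FU (SD, n = 4), 834 ± 32.9 with nifedipine (SD, n = 4) and 1111 ± 20.1 CPM in control libraries (SD, n = 3). Nifedipine and 5-FU libraries again overlapped, with ranges of 785 to 854 and 736 to 836 CPM. The ratio of large to small subunit CPM lay between 1.59 and 1.79 over all 15 libraries. It was 1.66 ± 0.0688 in untreated (SD, n = 4), 1.69 ± 0.0232 after 5-FU (SD, n = 4), 1.76 ± 0.0298 in control (SD, n = 3) and 1.68 ± 0.0235 with nifedipine (SD, n = 4). The untreated range of the ratio, 1.59 to 1.74, overlapped that of each other group. The control libraries, at 1.74 to 1.79, all lay above the 5-FU libraries (1.67 to 1.72) and the nifedipine libraries (1.66 to 1.71). Differences in the ratio were not tested.

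**Figure D1:**
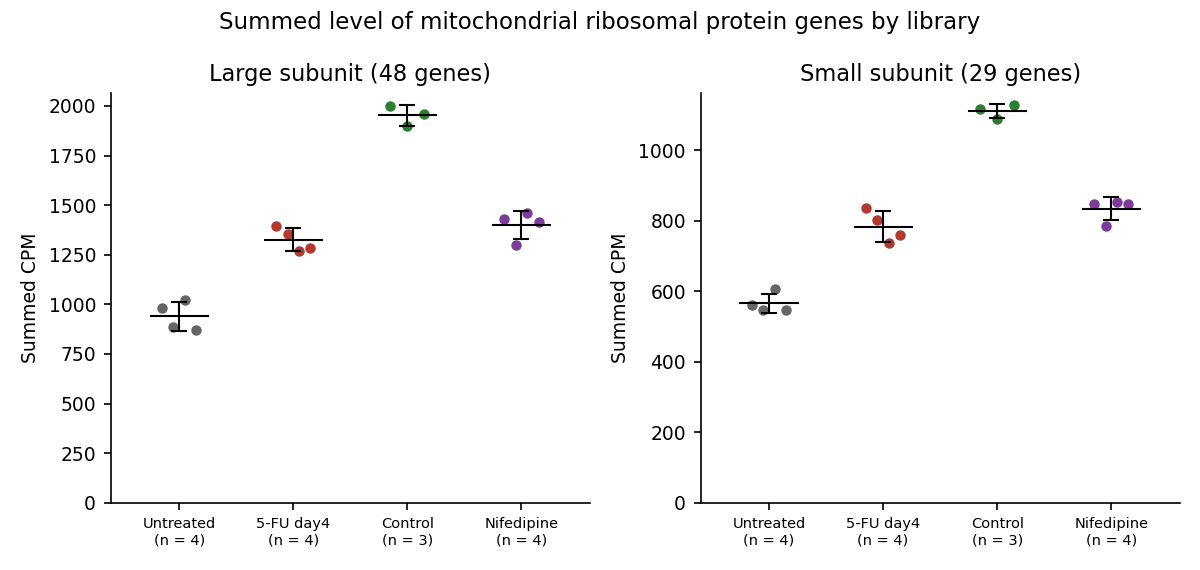
Summed level of the 48 large and 29 small subunit genes in each library (y axis, CPM, from 0) by group (x axis); points are libraries, and bars are the mean and SD. For the large subunit, untreated libraries sit at 870 to 1021 CPM and control libraries at 1898 to 2002 CPM, with 5-FU and nifedipine libraries between them.

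Single members kept to this order in most cases. By group mean, 47 of 77 members ran untreated, 5-FU, nifedipine, control from lowest to highest, and 25 ran untreated, nifedipine, 5-FU, control. The other 5 members each had an order of their own. The spread between replicates was widest in untreated libraries, where the median coefficient of variation was 14.4% for large and 11.4% for small subunit genes, against 7.52% and 8.46% in control libraries. Over all genes with a mean of at least 5 CPM it was also wider in untreated libraries, 10.2% against 7.46% in control libraries.

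Within the untreated libraries the members spanned more than 10-fold in reads per length (CPM per kilobase of exon). The highest of the large subunit were Mrpl42 at 41.4 ± 5.96, Mrpl33 at 39.3 ± 3.07 and Mrpl13 at 30.4 ± 4.45 CPM per kilobase (SD, n = 4). The lowest were Mrpl41 at 2.60 ± 0.197, Mrpl53 at 3.50 ± 0.564 and Mrpl15 at 3.94 ± 0.444 CPM per kilobase (SD, n = 4). Among these, Mrpl42 and Mrpl33 differed by less than their SDs. In the small subunit Mrps18c at 30.0 ± 3.50, Mrps33 at 28.7 ± 1.97 and Mrps16 at 22.5 ± 2.13 CPM per kilobase were highest (SD, n = 4). Mrps34 at 3.84 ± 1.09, Mrps10 at 4.89 ± 0.667 and Mrps31 at 5.69 ± 0.503 CPM per kilobase were lowest (SD, n = 4). The proteins are built into 1 particle, and their messenger RNA levels per length were thus far from equal. Exon length here counts every annotated exon of a gene (7204 bases for Mrpl15 and 466 for Mrpl33), so a level per length understates a gene with long unused exons.

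The first comparison asked how HSCs at day 4 after 5-FU differ from those of untreated mice. Mitochondrial ribosomal protein genes were higher after 5-FU: 59 of 77 passed the test upwards, with a median log2 fold change of 0.50 over all 77. The threshold for a call was an adjusted p of 0.05. Of all 13382 genes tested, 26.8% were called higher and 23.8% lower, and their median log2 fold change was -0.02. In the large subunit 34 of 48 were called higher (median 0.46) and in the small subunit 25 of 29 (median 0.55). With a correction for exon length and GC content, 39 members were called higher, 26 large and 13 small, and the median over all 77 was 0.32. Under that correction 27.2% of all genes tested were called higher. With edgeR no member was called lower and 0 had a lower level at an unadjusted p under 0.05; DESeq2 and limma-voom also called 0 lower. The 5-FU libraries all lay above the untreated ones for 47 members, and for 24.1% of all genes tested. The count called higher was 58 without untreated replicate 3 (highest mitosis sum of its group). It was 50 without replicate 2 (highest stromal sum, and a high erythroid sum) and 49 without replicate 4 (highest erythroid sum). All 22 mitosis genes were called higher in the same comparison (median 3.28), and 10 of 14 HSC identity genes lower, and the part of either in the members' change was not tested.

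Mrpl12, the counterpart of the bacterial stalk protein that contacts translation factors, changed most. It stood at 19.4, 15.1, 20.2 and 12.1 CPM in untreated libraries and at 41.3, 44.8, 29.3 and 39.1 CPM after 5-FU (log2 fold change 1.23 ± 0.18 SE, adjusted p = 0.000284). The lowest 5-FU library, replicate 3, was above the highest untreated one. Mrps28, a small subunit protein, stood at 7.14, 8.96, 10.8 and 7.74 CPM against 21.4, 22.2, 14.9 and 20.2 CPM (1.22 ± 0.18 SE, adjusted p = 0.000274). Replicate 3 was again the lowest of the 5-FU group, and the groups did not overlap.

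Mrpl20, Mrpl28 and Mrpl33, all with a bacterial counterpart in the large subunit, followed. Mrpl20 was at 13.5, 14.3, 13.5 and 8.45 CPM in untreated and at 28.0, 30.3, 26.5 and 24.1 CPM in 5-FU libraries (1.16 ± 0.17 SE, adjusted p = 0.000228). Mrpl28 rose from 16.0 ± 2.29 to 34.3 ± 2.76 CPM (SD, n = 4 and 4, log2 fold change 1.13 ± 0.12 SE, edgeR adjusted p = 4.15e-05). Mrpl33 rose from 18.3 ± 1.43 to 37.5 ± 1.83 CPM (SD, n = 4 and 4, 1.06 ± 0.09 SE, edgeR adjusted p = 1.2e-05), but its log2 fold change was 0.37 after a correction for exon length and GC content. No untreated library reached a 5-FU library for any of the 3 genes.

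In the small subunit Mrps11, Mrps22 and Mrps18b came after Mrps28. Mrps11, a counterpart of a bacterial platform protein, was at 5.24, 6.12, 9.33 and 4.68 CPM against 11.6, 12.5, 10.9 and 10.6 CPM (0.87 ± 0.22 SE, adjusted p = 0.00785). Untreated replicate 3 lay closest to the 5-FU libraries but below all of them. Mrps22, a protein without a bacterial counterpart, rose from 12.4 ± 1.19 to 20.9 ± 2.55 CPM (SD, n = 4 and 4, 0.78 ± 0.13 SE, edgeR adjusted p = 0.000624). Mrps18b rose from 15.7 ± 2.06 to 26.4 ± 3.57 CPM (SD, n = 4 and 4, 0.78 ± 0.14 SE, edgeR adjusted p = 0.000896).

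**Figure D2:**
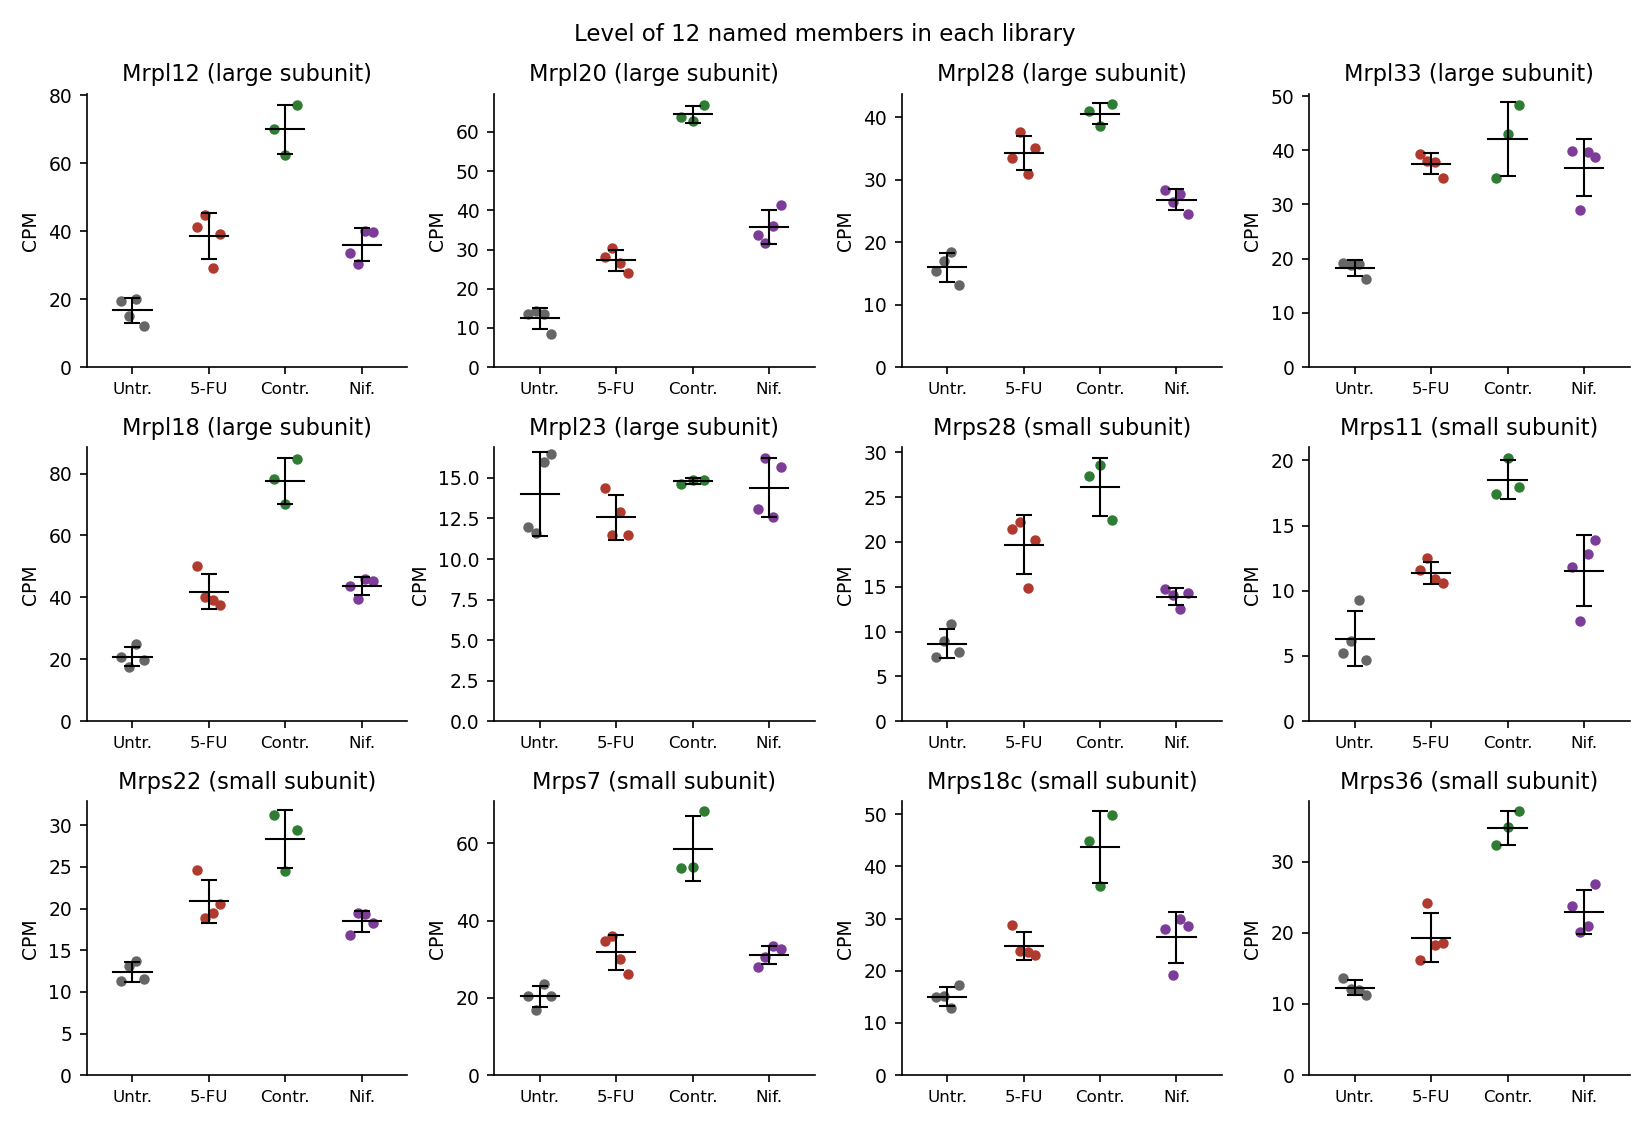
CPM (y axes, from 0) of 12 named members in each library by group (Untr., untreated; Contr., control; Nif., nifedipine); points are libraries, and bars are the mean and SD. Mrpl12 and Mrpl20 are highest in all 3 control libraries, and Mrpl23 stays between 11.5 and 16.5 CPM in all 15 libraries.

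The sequence upstream of 3 of these members is shown. They are Mrpl12 and Mrpl20, which changed most in the large subunit, and Mrps22, which came after Mrps28 and Mrps11 in the small subunit. Any part of these sequences in the members' change was not tested. The stretches come from RefSeq (GRCm38.p6) and end before the first annotated transcribed base. They are Mrpl12 chr11:120484467-120484612 (plus strand), Mrpl20 chr4:155802708-155802851 (plus strand) and Mrps22 chr9:98601680-98601849 (minus strand), each written 5′ to 3′ with searched motifs in capitals.
Mrpl12: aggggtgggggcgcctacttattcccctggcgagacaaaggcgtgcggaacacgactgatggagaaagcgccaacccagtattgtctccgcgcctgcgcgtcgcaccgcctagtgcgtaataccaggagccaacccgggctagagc
Mrpl20: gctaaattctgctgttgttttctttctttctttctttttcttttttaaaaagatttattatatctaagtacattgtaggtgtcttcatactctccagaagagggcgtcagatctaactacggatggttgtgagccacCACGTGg
Mrps22: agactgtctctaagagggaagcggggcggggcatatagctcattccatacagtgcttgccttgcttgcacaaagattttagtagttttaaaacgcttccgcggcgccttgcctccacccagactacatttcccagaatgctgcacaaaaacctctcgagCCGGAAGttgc
The capitals mark an E-box (CACGTG) upstream of Mrpl20 and an ETS motif (CCGGAAG) upstream of Mrps22. The stretches differ in make-up: GC content is 63.0% for Mrpl12, with 14 CpG dinucleotides, 51.2% for Mrps22 with 8, and 36.8% for Mrpl20 with 3.

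The 4 motifs ETS, YY1, NRF1 and E-box were searched on both strands from 250 bases before to 50 after each RefSeq start, in 74 windows of 68 members. ETS letters (CCGGAAG) occurred in 33.8% of the members' windows, against 16.1% of 13378 windows of genes tested here and 8.86% of all 32851 windows. YY1 letters (AAGATGGCG) occurred in 10.8%, 2.72% and 1.40% of the same 3 sets, and NRF1 letters (GCGCATGCG) in 9.46%, 3.38% and 1.75%. The E-box (CACGTG) occurred in 9.46%, 9.49% and 7.15% of windows. Some genes have several windows with nearby starts, and the members' 7 E-box windows belong to 5 genes. Counted per gene, the E-box was found for 7.35% of the 68 members and 11.4% of genes tested, and ETS letters for 36.8% and 18.9%. Small subunit windows held ETS letters in 11 of 27 and large subunit windows in 14 of 47. At least 1 of the motifs was found for 37 members and none for 31, Mrpl12 among them. No motif lies within another, and a match is only a description of the sequence. Median GC content was 58.5% in the members' windows and 60.3% in those of genes tested. The median count of CpG dinucleotides was 21.5 in the members' windows, 19.0 in those of genes tested and 7.0 in all windows. The ETS, YY1 and NRF1 letters each hold a CpG, and the part of CpG content in their shares was not tested.

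The second comparison asked what nifedipine changed in cultured HSCs. Mitochondrial ribosomal protein genes were lower with nifedipine: 57 of 77 passed the test downwards, with a median log2 fold change of -0.47. Of all 12805 genes tested, 24.2% were called lower and 25.8% higher, and their median was 0.02. In the large subunit 34 of 48 were called lower (median -0.52) and in the small subunit 23 of 29 (median -0.44). No member was called higher with edgeR, DESeq2 or limma-voom, and 0 were higher at an unadjusted p under 0.05 with edgeR. The nifedipine libraries all lay below the control ones for 58 members, and for 25.5% of all genes tested. Of the 22 mitosis genes 14 were called lower and 1 higher (median -0.68), and of 14 HSC identity genes 10 higher and 3 lower. Erythroid genes were called lower in 5 of 6 tested (summed level 1044 to 1060 CPM in control and 745 to 748 CPM in nifedipine libraries, with Hba-a2 and Slc4a1 at 0 in both). Megakaryocyte and platelet genes were called lower in 4 of 6 (277 to 447 and 132 to 268 CPM), Itga2b by the most (-2.50). Granulocyte and monocyte genes were called higher in 2 of 3 (62.4 to 80.7 and 211 to 233 CPM), mostly through Lyz2 (1.68), while Elane, Mpo, S100a8, S100a9, Ly6c2 and Fcnb were at 0 in both groups. The part of these lists in the members' change was not tested.

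Mrpl12 again changed most, at 70.2, 62.6 and 77.2 CPM in control and 33.6, 30.4, 40.2 and 39.9 CPM in nifedipine libraries (log2 fold change -0.96 ± 0.11 SE, adjusted p = 1.03e-06). Every nifedipine library lay more than 20 CPM below every control library. Mrps7, a counterpart of the bacterial protein that organises the head of the small subunit, was at 53.6, 53.9 and 68.3 CPM against 27.9, 30.6, 33.4 and 32.6 CPM (-0.91 ± 0.11 SE, adjusted p = 1.66e-06). Mrps28 was at 27.4, 28.6 and 22.4 CPM against 14.7, 14.1, 12.5 and 14.3 CPM (-0.91 ± 0.13 SE, adjusted p = 1.72e-05). The groups of both genes were apart, with control replicate 3 highest for Mrps7 and lowest for Mrps28.

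Mrpl20 was at 63.7, 62.9 and 66.9 CPM in control and 33.7, 31.7, 36.1 and 41.5 CPM in nifedipine libraries (-0.85 ± 0.10 SE, adjusted p = 1.4e-06). Mrpl54 fell from 13.6 ± 1.37 to 7.64 ± 1.5 CPM (SD, n = 3 and 4, -0.83 ± 0.18 SE, edgeR adjusted p = 0.00112). Mrpl18, which in bacteria binds the 5S ribosomal RNA, fell from 77.7 ± 7.36 to 43.6 ± 2.93 CPM (SD, n = 3 and 4, -0.83 ± 0.09 SE, edgeR adjusted p = 6.55e-07). None of these 3 genes had overlapping groups. Mrps18c fell from 43.6 ± 6.86 to 26.4 ± 4.89 CPM (SD, n = 3 and 4, -0.72 ± 0.14 SE, edgeR adjusted p = 0.000368), and Mrps24 from 23.4 ± 2.26 to 14.6 ± 1.89 CPM (SD, n = 3 and 4, -0.68 ± 0.14 SE, edgeR adjusted p = 0.00054). For Mrps18c the lowest nifedipine library, replicate 2 at 19.2 CPM, stood apart from the other nifedipine libraries at 28.0 to 29.9 CPM, all below the lowest control library at 36.3 CPM.

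Setting cultured control against freshly sorted untreated HSCs places the members across all 4 groups. Culture and the experiment the libraries belong to cannot be told apart in it, and it shares the untreated libraries with the first comparison and the control libraries with the second. In control libraries 73 of 77 members were called higher, with a median log2 fold change of 1.12. Of all 13518 genes tested, 35.8% were called higher and 36.2% lower, and their median was -0.05. All 29 small subunit genes (median 1.13) and 44 of 48 large subunit genes (median 1.11) were called higher. No member was called lower with edgeR, DESeq2 or limma-voom, and 0 were lower at an unadjusted p under 0.05 with edgeR. All 22 mitosis genes were called higher and all 12 endothelial and stromal genes lower in the same comparison, and 11 of 14 HSC identity genes were called lower, and their part in the members' difference was not tested.

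The largest differences between control and untreated libraries were those of Mrpl20 and Mrpl12. Mrpl20 was 5.42-fold higher (log2 fold change 2.44 ± 0.16 SE, adjusted p = 7.15e-07), from 12.4 ± 2.68 to 64.5 ± 2.10 CPM. Mrpl12 was 4.33-fold higher (2.12 ± 0.17 SE, adjusted p = 2.22e-06) and Mrpl18 was 3.85-fold higher (1.95 ± 0.12 SE, adjusted p = 4.64e-07). Mrpl47 followed with 1.74 ± 0.25 SE, from 6.15 ± 2.17 to 19.9 ± 0.995 CPM. In the small subunit the largest were Mrps28 at 1.65 ± 0.17 SE, Mrps11 at 1.59 ± 0.24, and Mrps18c and Mrps18b at 1.59 ± 0.15 and 1.59 ± 0.13. The groups of all 8 genes were apart.

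**Figure D3:**
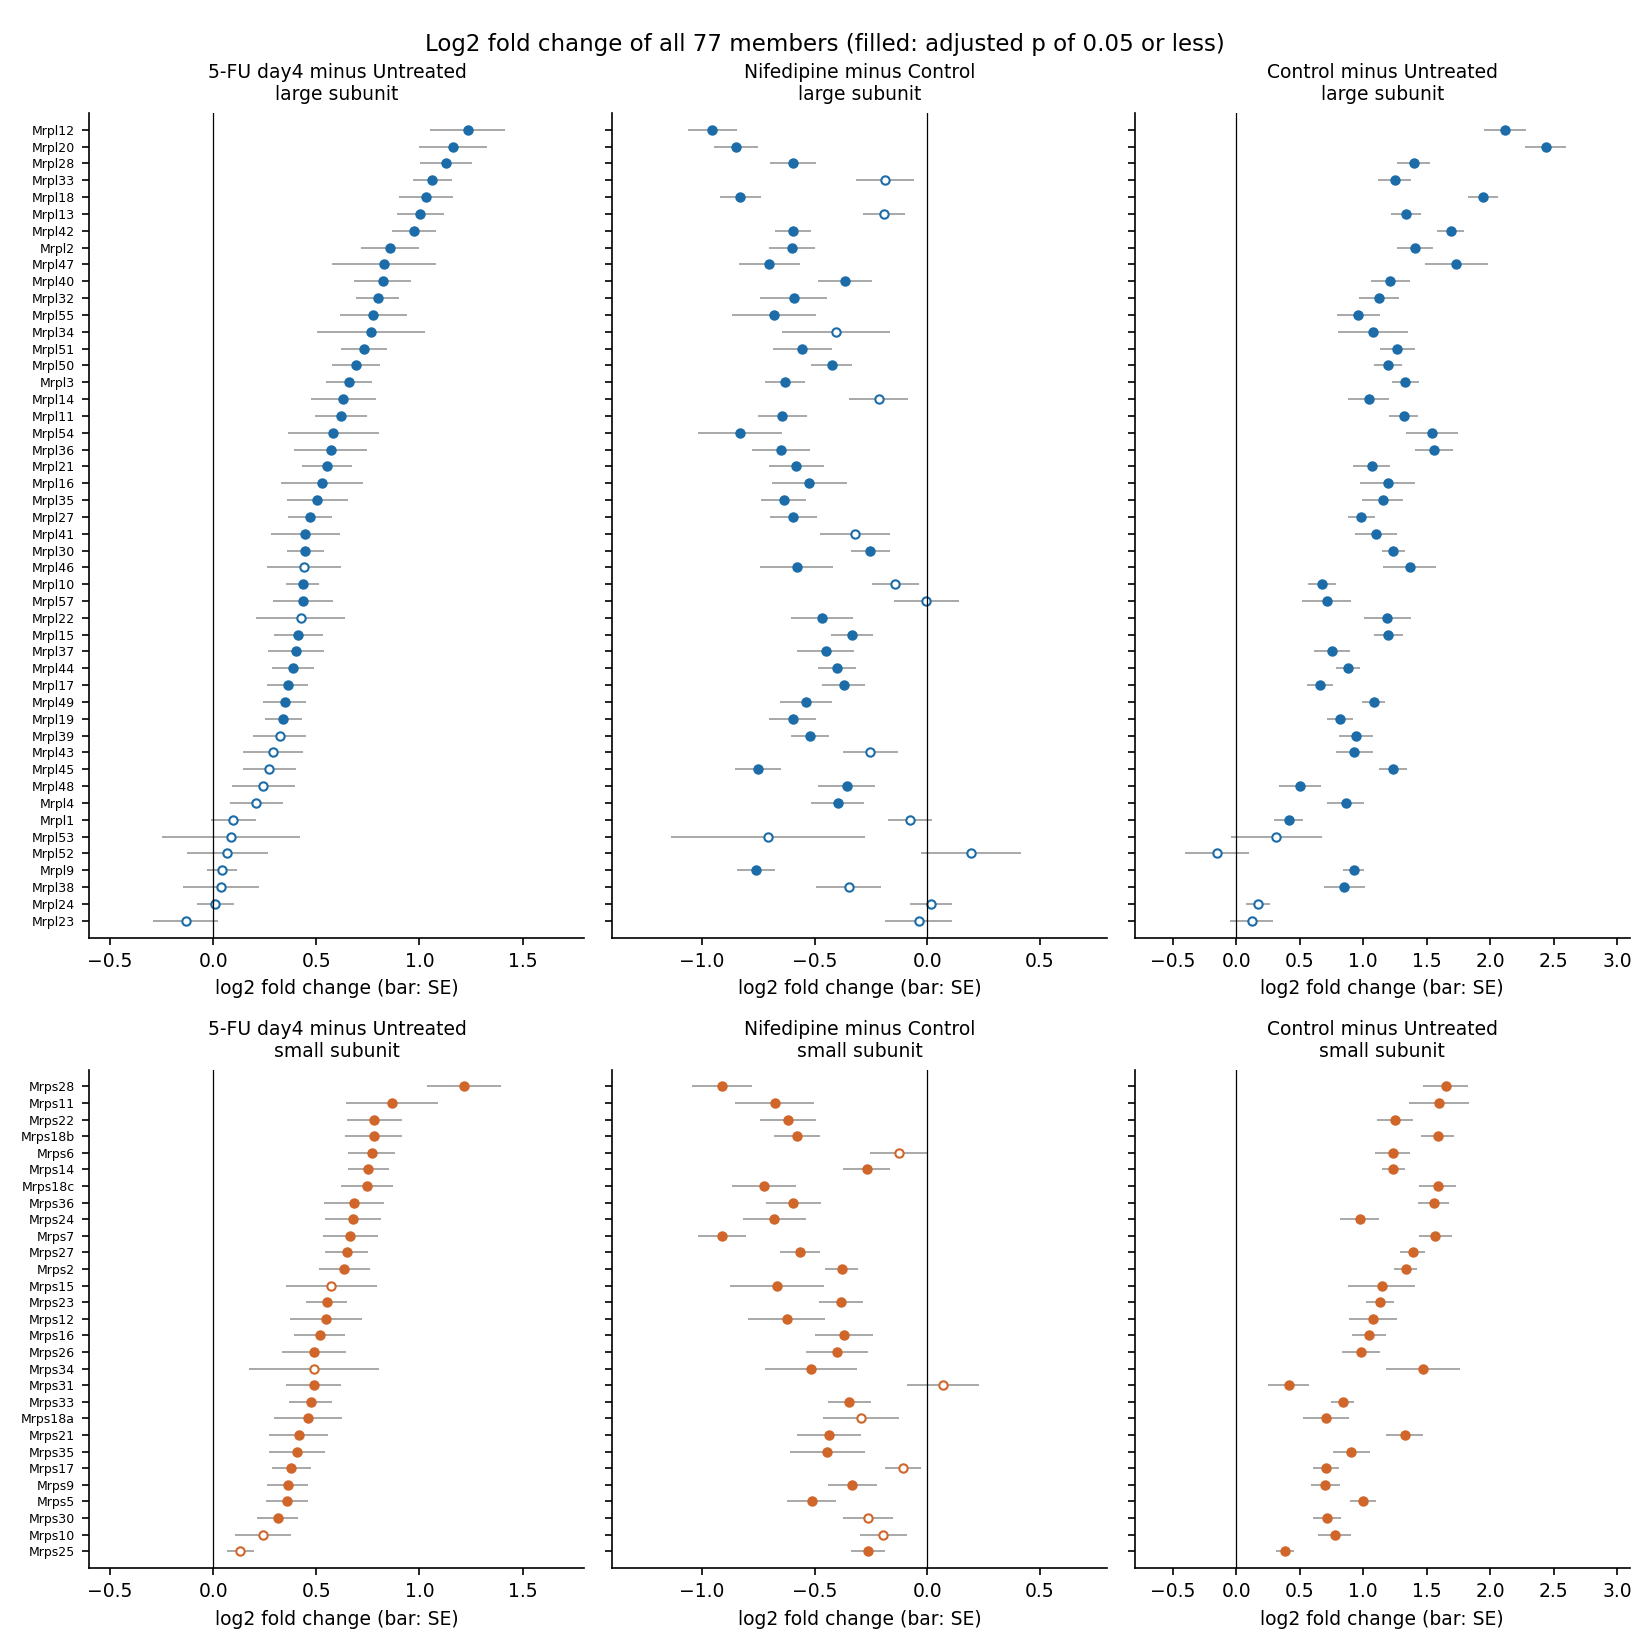
Log2 fold change (x axes) of all 77 members (y axes, ordered by the 5-FU comparison) in the 3 comparisons, large subunit above and small subunit below; bars are standard errors and filled points passed an adjusted p of 0.05. After 5-FU 59 points are filled, all to the right of 0, and with nifedipine 57, all to the left of 0.

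The 5-FU and nifedipine comparisons share no library, so their calls can be set beside each other. Of the 59 members called higher after 5-FU, 47 (79.7%) were called lower with nifedipine, and these were 82.5% of the 57 called lower. Over all 12577 genes tested in both, 2030 were called higher after 5-FU and lower with nifedipine. These were 57.1% of those higher after 5-FU and 66.1% of those lower with nifedipine. Whatever their 5-FU call, 57 of the 77 members were called lower with nifedipine, against 3071 of the 12577 genes. Of the 18 members not called after 5-FU, 10 were called lower with nifedipine. A large joint count thus follows from the members' separate counts. Whether the percentages differ beyond these counts was not tested. All 47 members with both calls were also called higher in control than in untreated libraries, as were 73 of all 77 members. That comparison reuses the untreated and control libraries, so this overlap is not independent of the other calls. Across the 77 members the log2 fold changes of both treatments had a Pearson r of -0.48 and a Spearman rho of -0.44, and across all 12577 genes -0.30 and -0.46. These are correlations across genes, which share libraries, length and base composition and are not independent replicates. Of the members 12 were called after 5-FU but not with nifedipine, 10 with nifedipine but not after 5-FU, and 8 in neither.

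**Figure D4:**
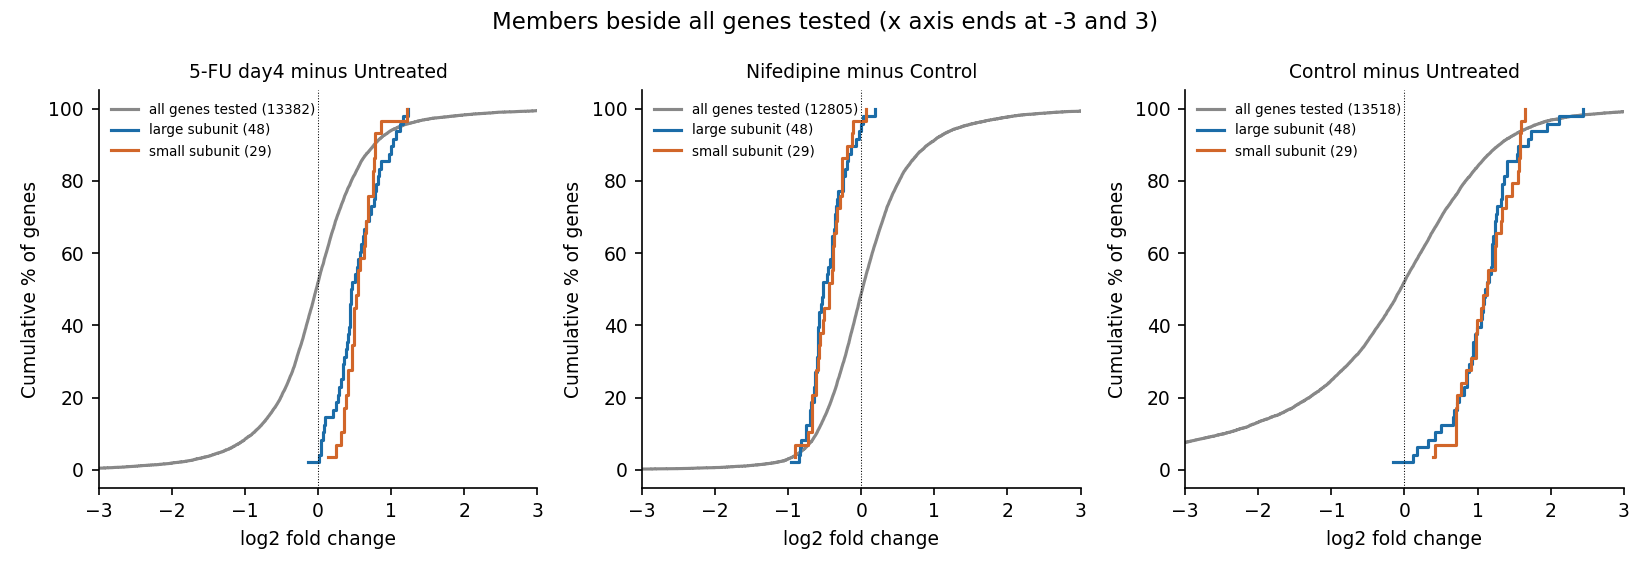
Cumulative percent of genes (y axes) by log2 fold change (x axes) for all genes tested and for the large and small subunit genes in each comparison. Both subunits' curves lie to the right of all genes after 5-FU (medians 0.46 and 0.55 against -0.02) and to the left with nifedipine (medians -0.52 and -0.44 against 0.02).

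Mrpl33 and Mrpl13, among the members that rose most after 5-FU, did not pass the test with nifedipine. Mrpl13 rose from 23.9 ± 3.50 to 47.4 ± 3.43 CPM after 5-FU (SD, n = 4 and 4, edgeR adjusted p = 4.76e-05), and was at 58.7 ± 4.38 CPM in control and 51.3 ± 4.28 CPM in nifedipine libraries (-0.19 ± 0.09 SE, adjusted p = 0.0942). Mrpl33 was at 34.8, 43.0 and 48.3 CPM in control and at 39.8, 28.9, 39.7 and 38.8 CPM in nifedipine libraries (-0.19 ± 0.13 SE, adjusted p = 0.248). The groups of both overlapped. Mrpl9 did the reverse: it was at 48.7 ± 1.99 CPM in untreated and 49.1 ± 2.80 CPM in 5-FU libraries (0.04 ± 0.07 SE, adjusted p = 0.663), but fell with nifedipine from 89.1 ± 8.03 to 52.6 ± 2.47 CPM (-0.76 ± 0.08 SE, edgeR adjusted p = 7.4e-07). Mrpl9 and the comparison of Mrpl13 with it were picked after their values were seen, and whether the responses differ between treatments was not tested.

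Called in none of the comparisons were 4 members, all of the large subunit and all named after their values were seen. Mrpl23, a counterpart of a protein at the exit of the bacterial ribosomal tunnel, was at 14.0 ± 2.55, 12.6 ± 1.39, 14.8 ± 0.165 and 14.4 ± 1.82 CPM in untreated, 5-FU, control and nifedipine libraries (SD, n = 4, 4, 3 and 4). Its neighbour in the bacterial tunnel exit, Mrpl24, was at 45.0 ± 3.43, 44.5 ± 3.48, 49.0 ± 4.56 and 49.6 ± 1.85 CPM, with log2 fold changes of 0.01 ± 0.09 SE after 5-FU and 0.02 ± 0.09 SE with nifedipine. Mrpl24 was called higher in the control against untreated comparison once control replicate 2 was left out (0.26, adjusted p = 0.0425) or with scaling to the RPKM read total (0.41, adjusted p = 0.00873). Mrpl52 was at 7.37 ± 1.54 CPM in untreated and 7.62 ± 0.779 CPM in 5-FU libraries, and Mrpl53 at 2.17 ± 0.349 and 2.29 ± 0.727 CPM. In control and nifedipine libraries Mrpl52 was at 6.42 ± 1.39 and 7.36 ± 0.952 CPM (0.20 ± 0.22 SE, edgeR adjusted p = 0.503). Mrpl53 was at 2.62 ± 0.657 and 1.60 ± 0.412 CPM in these groups (-0.71 ± 0.43 SE, edgeR adjusted p = 0.189). Mrpl53 rested on 12 to 36 reads in the thinnest library of each group, and its standard errors of 0.33 and 0.43 in the 5-FU and nifedipine comparisons leave a change of the members' median size undetectable.

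Members with a bacterial counterpart and mitochondria-specific members moved the same way. After 5-FU, 40 of 48 with a counterpart were called higher (median log2 fold change 0.57) and 18 of 28 mitochondria-specific ones (0.44). With nifedipine 36 of 48 (-0.55) and 20 of 28 (-0.41) were called lower, and in control against untreated libraries 46 of 48 (1.17) and 26 of 28 (0.96) were called higher. The difference between the classes was not tested. Mrps36, counted in neither class, was at 13.7, 12.1, 12 and 11.2 CPM in untreated and 16.2, 24.2, 18.3 and 18.5 CPM in 5-FU libraries (0.68 ± 0.15 SE, adjusted p = 0.00289). It fell with nifedipine from 34.7 ± 2.44 to 22.9 ± 3.12 CPM (SD, n = 3 and 4, -0.60 ± 0.12 SE, edgeR adjusted p = 0.000542). After correction for exon length and GC content its 5-FU difference was 0.22 (adjusted p = 0.232).

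The 3 relatives of the bacterial S18 protein sit at different places of the mitochondrial ribosome, Mrps18a in the large subunit and Mrps18b and Mrps18c in the small. Mrps18c rose after 5-FU from 15.1 ± 1.76 to 24.8 ± 2.64 CPM (SD, n = 4 and 4, 0.75 ± 0.12 SE, edgeR adjusted p = 0.000635), but its difference was 0.06 after the exon length and GC correction (adjusted p = 0.718). Mrps18b fell with nifedipine from 45.4 ± 4.52 to 30.4 ± 1.65 CPM (SD, n = 3 and 4, -0.58 ± 0.10 SE, edgeR adjusted p = 0.00014). Mrps18a was at 6.92, 7.01, 6.81 and 9.11 CPM in untreated and 10.8, 10.3, 8.60 and 10.6 CPM in 5-FU libraries, where untreated replicate 4 overlapped replicate 3 after 5-FU (0.46 ± 0.17 SE, adjusted p = 0.0405). That call was lost without any 1 of 6 libraries (untreated 1, 2 or 3, 5-FU 1, 2 or 4), at adjusted p of 0.0776 to 0.109, with the log2 fold change still at 0.40 to 0.46. With nifedipine Mrps18a was at 9.59 ± 1.04 against 11.8 ± 0.426 CPM (-0.29 ± 0.17 SE, adjusted p = 0.158).

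The calls of Mrps30 and Mrps12 after 5-FU lay near the threshold. Mrps30 was at 27.0, 26.4, 26.6 and 32.6 CPM in untreated and 37.7, 33.3, 32 and 34.1 CPM in 5-FU libraries (0.31 ± 0.10 SE, adjusted p = 0.0234), and untreated replicate 4 overlapped the 5-FU group. Leaving out untreated 1 (adjusted p = 0.0599), untreated 3 (0.0655) or 5-FU 1 (0.0894) ended the call, with the log2 fold change still at 0.25 to 0.29. With nifedipine Mrps30 missed the threshold (-0.26 ± 0.11 SE, adjusted p = 0.0598), and passed it without control 2 (0.0437), nifedipine 3 (0.0478) or nifedipine 4 (0.0286). Mrps12, the counterpart of a protein of the bacterial decoding centre, was at 9.09, 5.97, 7.96 and 6.76 CPM in untreated and 11, 10.3, 9.54 and 12 CPM in 5-FU libraries (0.55 ± 0.17 SE, adjusted p = 0.0234). These groups did not overlap, but leaving out untreated 2 (0.0551), untreated 4 (0.0591), 5-FU 1 (0.0553) or 5-FU 4 (0.0625) ended the call, with the log2 fold change still at 0.47 to 0.52. With nifedipine Mrps12 fell from 15.2 ± 1.37 to 9.87 ± 1.75 CPM (SD, n = 3 and 4, -0.62 ± 0.17 SE, edgeR adjusted p = 0.00568).

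Other genes of mitochondrial translation were given the same test, from lists of their roles. Of all genes tested, 26.8% were called higher and 23.8% lower after 5-FU, and 25.8% higher and 24.2% lower with nifedipine. In control against untreated libraries these shares were 35.8% and 36.2%. Of the 5 mitoribosome subunits under other symbols, 3 were called higher and 0 lower after 5-FU, 5 lower with nifedipine and 4 higher in control against untreated libraries. Chchd1 was at 8.78 ± 2.20 CPM in untreated and 14.7 ± 2.57 CPM in 5-FU libraries (0.76 ± 0.20 SE, adjusted p = 0.00959), and Aurkaip1 at 15.8 ± 1.94 and 21.2 ± 0.797 CPM (0.45 ± 0.12 SE, adjusted p = 0.00809). Ptcd3 fell with nifedipine from 185 ± 11.8 to 126 ± 11.9 CPM (-0.55 ± 0.08 SE, adjusted p = 1.25e-05). Dap3, a GTP-binding protein of the small subunit, was at 60.2 ± 4.56 and 60.9 ± 1.93 CPM before and after 5-FU (0.05 ± 0.07 SE, adjusted p = 0.634).

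Translation factors were called in both directions. Of 19 tested, 9 were called higher and 4 lower after 5-FU (median 0.24), and 1 higher and 9 lower with nifedipine (median -0.28). Among the 4 called lower after 5-FU were Gfm2 (-0.495 ± 0.09 SE, adjusted p = 0.00126) and Metap1d (-0.36 ± 0.10 SE, adjusted p = 0.0112). Metap1d was also the 1 called higher with nifedipine (0.55 ± 0.12 SE, adjusted p = 0.000898). Tufm, the elongation factor that brings transfer RNA to the ribosome, rose after 5-FU from 34.6 ± 1.45 to 57.3 ± 2.85 CPM (0.76 ± 0.07 SE, adjusted p = 2.05e-05) and fell with nifedipine from 78.0 ± 2.92 to 43.1 ± 5.26 CPM (-0.85 ± 0.10 SE, adjusted p = 8.49e-07). Gfm1, the translocation factor, was at 35.0 ± 5.19 CPM in untreated and 67.4 ± 2.45 CPM in 5-FU libraries (0.97 ± 0.10 SE, adjusted p = 3.49e-05). Lrpprc, which stabilises mitochondrial messenger RNA, was at 88.3 ± 7.73 and 128 ± 8.50 CPM (0.56 ± 0.07 SE, adjusted p = 0.000138), and fell with nifedipine (-0.70 ± 0.08 SE, adjusted p = 5.32e-07).

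Factors that build the mitochondrial ribosome and those that charge its transfer RNAs were tested next. Of 25 assembly factors 7 were called higher and 3 lower after 5-FU (median 0.07), 2 higher and 8 lower with nifedipine (median -0.15), and 13 higher and 4 lower in control against untreated libraries (median 0.41). The share of assembly factors called higher after 5-FU was near the 26.8% over all genes tested. Among these factors Fastkd2 fell with nifedipine (-0.68 ± 0.08 SE, adjusted p = 9.62e-07) and Noa1 rose after 5-FU (0.68 ± 0.15 SE, adjusted p = 0.00368). Of 17 mitochondrial aminoacyl-tRNA synthetases 7 were called higher and 0 lower after 5-FU (median 0.18), 1 higher and 6 lower with nifedipine (median -0.21), and 11 higher and 1 lower in control against untreated libraries (median 0.65). Iars2, which charges the isoleucine transfer RNA, rose from 84.2 ± 4.82 to 134 ± 10.0 CPM after 5-FU (0.70 ± 0.07 SE, adjusted p = 2.06e-05). Of 22 genes of mitochondrial transcription and RNA processing 6 were called higher and 2 lower after 5-FU, and 1 higher and 12 lower with nifedipine. Here too the share called higher after 5-FU was near that over all genes tested. Tfam, which packages mitochondrial DNA, rose after 5-FU (0.44 ± 0.07 SE, adjusted p = 0.000435) and fell with nifedipine (-0.45 ± 0.08 SE, adjusted p = 7.71e-05). Elac2 had the smallest p of this list with nifedipine (-0.86 ± 0.08 SE, adjusted p = 8.42e-08). It was not called after 5-FU (0.05 ± 0.10 SE, adjusted p = 0.685).

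Nuclear genes of oxidative phosphorylation and of the cytosolic ribosome gave 2 points of reference. Of 76 oxidative phosphorylation genes, 69 were called higher and 2 lower after 5-FU (median 0.74), and 2 higher and 58 lower with nifedipine (median -0.48). Of 79 cytosolic ribosomal protein genes, 20 were called higher and 16 lower after 5-FU (median 0.02), and 12 higher and 12 lower with nifedipine (median 0.00). The members' medians were 0.50 and -0.47. Differences between these lists and the members were not tested.

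Many members lie head to head with another gene. In the GENCODE annotation 23 of 77 (29.9%) had a protein-coding gene on the other strand whose start lay within 1000 bases, against 7.94% of 21922 protein-coding genes. Starts overlapping by up to 200 bases were included. The 21922 genes include ones not tested here, and the share over tested genes was not taken. Partners were tested for 22 pairs. After 5-FU the member was called in 21 of them, and its partner was called the same way in 8, the opposite way in 7 and not called in 6. With nifedipine the member was called in 20 pairs, and its partner was called the same way in 9, the opposite way in 2 and not called in 9. Over all genes tested, 26.8% were called higher and 23.8% lower after 5-FU, and 24.2% lower and 25.8% higher with nifedipine. Most of these pairs were named after their values were seen.

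Mrpl32 and Psma2, a proteasome subunit, start 75 bases apart and moved together: Mrpl32 changed by 0.80 after 5-FU and -0.59 with nifedipine, and Psma2 by 0.87 (adjusted p = 3.67e-06) and -0.62 (adjusted p = 7.16e-07). Mrps12 and Sars2, the mitochondrial seryl-tRNA synthetase, also did, and Sars2 changed by 0.69 (adjusted p = 0.0156) and -0.73 (adjusted p = 0.00027). So did Mrps18c with Helq, a DNA helicase, at 0.58 (adjusted p = 0.0137) and -0.45 (adjusted p = 0.0107). Mrpl2 and Klc4, a kinesin light chain, start 207 bases apart and went opposite ways. Mrpl2 was at 16.6 ± 3.04 CPM in untreated and 29.7 ± 2.77 CPM in 5-FU libraries, while Klc4 was at 24.6 ± 2.21 and 15.2 ± 4.18 CPM (-0.68, adjusted p = 0.0108). With nifedipine Mrpl2 fell from 42.8 ± 3.25 to 28.2 ± 1.76 CPM, and Klc4 rose from 14.7 ± 1.49 to 22.9 ± 2.24 CPM (0.64, adjusted p = 0.000751).

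**Figure D5:**
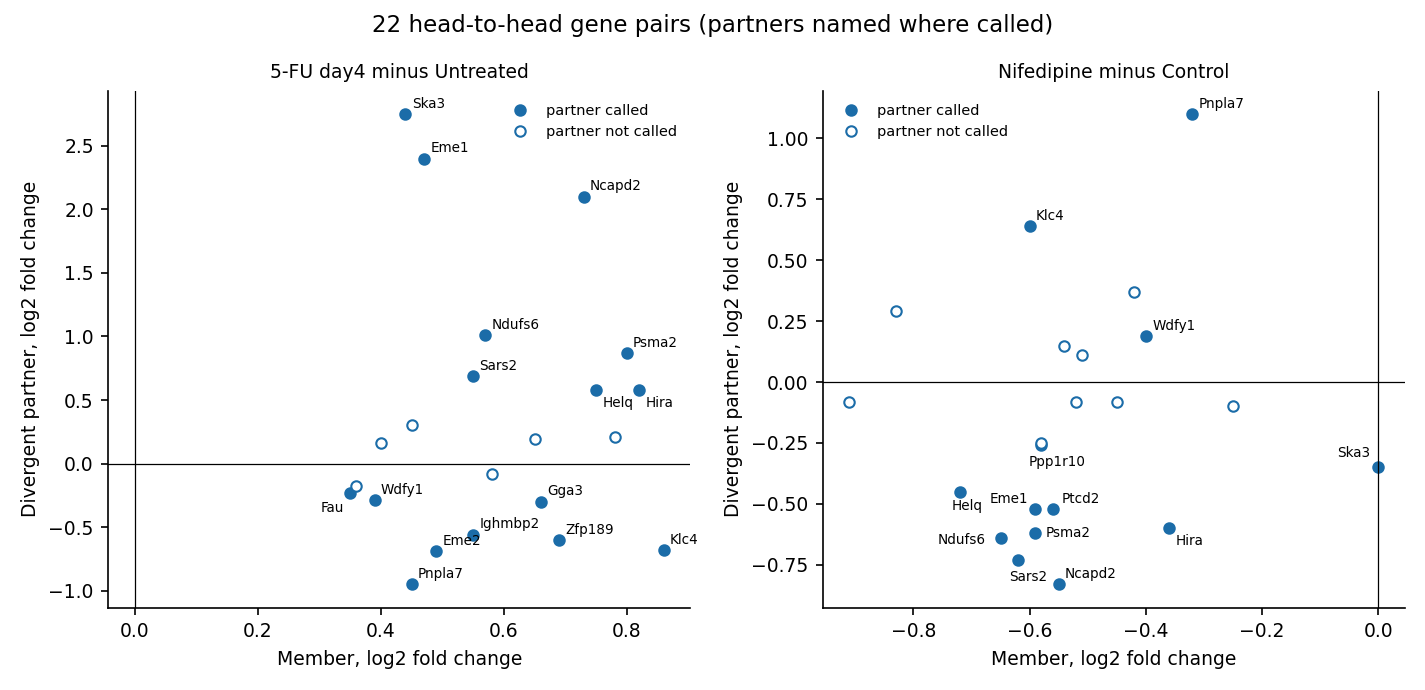
Log2 fold change of each member (x axes) and of its head-to-head partner (y axes) in 22 pairs after 5-FU (left) and with nifedipine (right); filled points are partners past an adjusted p of 0.05. After 5-FU the members lie to the right of 0 while partners spread to both sides, from Pnpla7 at -0.95 to Ska3 at 2.75.

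Several measured properties of the members bear on these values. Their exons are short, with a median of 1324 bases against 3497 for genes tested after 5-FU. After a correction for exon length and GC content, 39 members were called higher and 1 lower after 5-FU (Mrpl52, -0.59, adjusted p = 0.0137), 13 of them in the small subunit, and the median was 0.32. The same correction left 48 lower with nifedipine (median -0.41), and 61 higher and 1 lower in control against untreated libraries (median 0.73). Of all genes tested under it, 27.2% were called higher and 22.1% lower after 5-FU, and 25.1% higher and 25.3% lower with nifedipine. In control against untreated libraries these shares were 36.2% and 35.0%. The 39 shorter members had a median of 0.68 after 5-FU and the 38 longer ones 0.41, and with nifedipine -0.60 and -0.38. After the correction these medians were 0.35 and 0.32 after 5-FU and -0.45 and -0.33 with nifedipine.

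Scaling to the read total behind the authors' RPKM values, in place of TMM, raised the median of all genes by 0.20 after 5-FU and by 0.04 with nifedipine. Under it 73.7% of all calls after 5-FU were higher, against 52.9%, and 71 members were called higher with a median of 0.70, where the median of all genes was 0.17. Of all genes tested, 38.5% were then called higher after 5-FU. With nifedipine 44 members were then called lower, 14 of them in the small subunit, and 17.9% of all genes tested. Libraries were not strand-specific, and 23 members share exon sequence with a protein-coding gene, so reads there cannot be told apart. Those named above include Mrps11 (with Mrpl46), Mrps7 (Gga3 and Mif4gd), Mrpl18 (Tcp1), Mrpl13 (Mtbp), Mrpl47 (Actl6a and Ndufb5), Mrpl9 (Oaz3) and Mrps24 (Urgcp). Of the other 54 members, 44 were called higher after 5-FU (median 0.52) and 41 lower with nifedipine (median -0.44). Scaffold copies held part of the reads of 6 members (Mrpl22, Mrpl40, Mrps10, Mrps18b, Mrps23 and Mrps35), and of the other 71, 55 were called higher after 5-FU and 52 lower with nifedipine.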

How the data were processed

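RNA was measured in 15 libraries of 4 groups, 8 in the 5-FU experiment and 7 in the culture experiment, made with Nextera XT, which does not mark strand. The authors deposited 1 table per library with exon read counts per feature, not normalized, and RPKM values, which per the file headers are relative to exon length and a read total. The genome build was mm10, per the submitters' processing notes; which aligner and counting program were used is not given in the sources used here. Libraries held 6171730 to 26673045 exon reads, which limits thin genes most.

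Copies on alternate scaffolds were summed. Genes were filtered with filterByExpr, scaled by TMM and tested with edgeR 4.0.16 (quasi-likelihood, R 4.3.3) over the 2 groups compared, with Benjamini-Hochberg adjustment over all genes tested. Every adjusted p in the text is edgeR's unless another tool is named. CPM values are TMM-scaled. The test was tried on simulated data. DESeq2 1.42.0, limma-voom (limma 3.58.1), the read total behind the authors' RPKM values as library size, other filters, features as deposited, 1 fit of all 4 groups, an exon length and GC correction (splines with 4 degrees of freedom), a replicate block and leaving out libraries were alternatives.

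The members and lists were chosen with earlier results of these data known. Named members were, per subunit, the 4 called with the largest change without overlap in each comparison, the 3 highest and 3 lowest per kilobase in untreated libraries, any called against the others, and Mrpl12, Mrps12, Mrps18a, Mrps18b, Mrps18c, Mrps30 and Mrps36. Of each other list the genes with the smallest p were candidates, with Tufm and Lrpprc always named. Replicates of a group differed by more than sampling noise (chi-square per degree of freedom 4.74 to 21.9), so none was treated as a copy.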

Additional observations from a re-analysis of the deposited data

Results flagged for a closer look

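In 102 groups of 4 libraries of the named members and summed levels, 9 held a library far from the other 3, where chance gives about 1 in 20. Untreated replicate 4 accounted for 5 of them. It was low for Mrpl20 (8.45 CPM, the others 13.5 to 14.3), Mrpl33 (16.2 CPM, the others 18.8 to 19.2) and Mrps33 (27.2 CPM, the others 31.1 to 31.6). It was high for Mrps18a (9.11 CPM, the others 6.81 to 7.01) and Mrps30 (32.6 CPM, the others 26.4 to 27.0). Its erythroid genes summed to 2870 CPM, and those of untreated replicate 2, which was not flagged, to 2550 CPM. The part of erythroid genes in these values was not tested. Nifedipine replicate 2 was low for Mrpl33 (28.9 CPM, the others 38.8 to 39.8) and for the summed small subunit (785 CPM, the others 849 to 854). Nifedipine replicate 4 was high for Mrpl41 (11.4 CPM, the others 10.0 to 10.2), and 5-FU replicate 1 for Mrps18c (28.7 CPM, the others 23 to 23.8).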

How the results depend on the processing

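Of 350 alternative values of the members' counts and medians, 338 lay near the reported value, and no median changed sign. Many of the 350 are counts of members called against the main direction. Those were 0 as reported and could hardly move, so the total overstates how stable the results are. A count was taken as near if it lay within a set ratio of the reported one, so sizeable shifts still counted as near. The exon length and GC correction gave 39 members higher after 5-FU (13 small subunit), 1 lower (1 large subunit) and a median of 0.32, and in control against untreated libraries 1 lower (1 large subunit) and a median of 0.73. Scaling to the RPKM read total gave medians of 0.70 after 5-FU and 1.36 in control against untreated libraries, where it moved all genes by 0.24, and 14 small subunit members lower with nifedipine. A mean of at least 10 CPM gave a median of 0.98 in control against untreated libraries. The cause was not tested.

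Leaving out 1 library gave 46 to 58 members higher after 5-FU (26 to 35 large, 20 to 23 small; 0 lower; median 0.48 to 0.54), 49 to 56 lower with nifedipine (31 to 35 large, 18 to 22 small; 0 higher; median -0.51 to -0.42) and 71 to 73 higher in control against untreated libraries (43 to 45 large, 28 to 29 small; 0 lower; median 1.05 to 1.14). Replicate numbers were not taken to pair the samples: same-numbered libraries correlated at -0.03 to 0.109 in the 5-FU comparison, at 0.13, 0.155 and -0.004 in the nifedipine comparison and at -0.019 to 0.04 in control against untreated libraries, so that no comparison had every pair above 0.1. The replicate block gave 53 higher after 5-FU, 55 lower with nifedipine and 72 higher in control against untreated libraries.

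Some single values changed sign. After 5-FU these were Mrpl23 at 0.066 (RPKM total); Mrpl24 at -0.004 (DESeq2), -0.002 (limma-voom), -0.028 (10 CPM), -0.019 (all groups) and -0.042 (length and GC), at 0.0 with features as deposited, and -0.042 to 0.055 over the fits that leave out 1 library. Mrpl52 was at -0.594 (length and GC), and -0.025 to 0.154 leaving out 1 library, Mrpl53 at -0.043 (limma-voom), -0.34 (length and GC) and -0.092 to 0.264 leaving out 1 library, Mrps10 at -0.011 (features as deposited) and Mrps16 at -0.059 (length and GC). With nifedipine they were Mrpl23 at 0.001 (RPKM total), 0.08 (length and GC) and -0.097 to 0.022 leaving out 1 library, Mrpl24 at -0.054 to 0.076 and Mrps31 at -0.004 to 0.17 leaving out 1 library. In control against untreated libraries they were Mrpl23 at -0.045 (10 CPM) and -0.125 (length and GC), Mrpl24 at -0.026, Mrpl53 at -0.298 and Mrps31 at -0.09 (length and GC), and Mrpl52 at 0.087 (RPKM total).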
